A study of Mus musculus with 8 samples.

Results

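The genes described are 10 pluripotency-associated genes other than the core transcription factors: Nr0b1, Tcl1, Dppa3, Dppa5a, Prdm14, Utf1, Fbxo15, L1td1, Trim71 and Lin28a. They were chosen by name, with earlier results of these data known, so their calls are not independent of that choice. All 10 were found by symbol among the 54232 genes of the count tables. RNA-seq libraries of polyadenylated RNA were made from the mouse embryonic stem cell line E14, with the strain given as 12910la, grown on gelatin in 15% serum with 10 ng/ml of the cytokine LIF. The groups were Ssrp1_KO cells, lines made by targeting Ssrp1 with a Cas9-gRNA, with their own Ssrp1_Control cells, and Usp7_KD cells, which received an shRNA against Usp7, with their own Usp7_Control cells, in 2 libraries each. Per the labels' protocols, the shRNA was delivered as 1000 ng of a pSuper puro plasmid, followed after 24 h by 1 ug/ml puromycin for 3 days. The protocols set the Ssrp1 knockout lines against wild-type cells, and they do not say how many clones there were, nor whether the Usp7 controls carried an empty vector.

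Ssrp1 is a subunit of FACT, a histone chaperone that takes nucleosomes apart and rebuilds them during transcription and replication, and Usp7 is a deubiquitinase of the Mdm2 and p53 pathway. The genes described here are switched on in the inner cell mass, in germ cells or in cultured embryonic stem cells and fall silent as cells differentiate, so they are widely used as markers of the undifferentiated state. They do not form one pathway. Nr0b1, Prdm14 and Utf1 act on transcription and chromatin, Tcl1 and Fbxo15 act in kinase signalling and protein degradation, Dppa3 protects DNA methylation marks in the early embryo, and Dppa5a, L1td1, Trim71 and Lin28a bind RNA. Lin28a blocks the maturation of the let-7 microRNAs, which in turn repress Lin28a and Trim71.

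Of these genes, Nr0b1 and Tcl1 fell in the libraries labelled Ssrp1 KO, and none passed the test in Usp7 KD cells. The RefSeq promoter table (GRCm38.p6) held 6 of the 10 genes, Nr0b1, Tcl1, Utf1, L1td1, Trim71 and Lin28a. The stretches before Nr0b1 and Tcl1 are shown because these are the genes whose transcripts fell. Each runs 5′ to 3′ on the gene's strand, and the capitals mark matches to the short motifs searched. Positions are counted upstream of the RefSeq start, and the 11 bases of Nr0b1 and 56 bases of Tcl1 next to it are not shown, since GENCODE places them in the transcript.
Nr0b1 promoter, chrX:86191525-86191763, plus strand: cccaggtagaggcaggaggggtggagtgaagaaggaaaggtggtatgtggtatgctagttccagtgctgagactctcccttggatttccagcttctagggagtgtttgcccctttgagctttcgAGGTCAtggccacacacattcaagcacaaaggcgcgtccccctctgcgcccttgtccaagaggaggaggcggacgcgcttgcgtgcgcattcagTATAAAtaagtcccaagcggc
Tcl1 promoter, chr12:105222794-105222987, minus strand: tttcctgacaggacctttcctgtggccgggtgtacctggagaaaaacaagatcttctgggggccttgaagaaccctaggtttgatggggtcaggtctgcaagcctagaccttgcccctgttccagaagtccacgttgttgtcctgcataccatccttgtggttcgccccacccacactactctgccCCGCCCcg

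The Nr0b1 promoter held a TATA box (TATAAA) 32 bases upstream of the start and a nuclear receptor half-site (AGGTCA) 126 bases upstream. Over the 32851 promoters of the table, searched on both strands over 250 bases, 12.4% held the first and 14.0% the second. The Tcl1 promoter held a GC box (GGGCGG) on the opposite strand 64 bases upstream and another 54 bases upstream, in the stretch not shown, and 32.7% of all promoters held this motif. Neither promoter held the octamer ATTTGCAT, present in 1.6% of all promoters, or the CCAAT box, present in 33.8%. These matches describe letters in a window and none of them overlaps another in these promoters.

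Lin28a and Trim71 were searched for let-7 sites because the let-7 pathway links these genes. The mature let-7a is shown with its seed, bases 2 to 8, in capitals, and below it the stretches of the 3′ untranslated regions that match the seed, with the match in capitals.
let-7a-5p: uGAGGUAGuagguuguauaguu
Lin28a site 1: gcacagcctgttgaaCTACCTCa
Lin28a site 2: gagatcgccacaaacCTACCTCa
Trim71 site 1: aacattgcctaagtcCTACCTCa
Trim71 site 2: agtgataatttctatCTACCTCa
Trim71 site 3: tttagtatggattttCTACCTCa
Trim71 site 4: ttggcaaaaagttgtCTACCTCa

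The longest annotated 3′ untranslated region of Lin28a, of 2775 bases, held 2 matches and that of Trim71, of 5512 bases, held 4. The remaining 8 genes held 0 matches in regions of 122 to 962 bases. The 7-base match was present in 9.02% of 21020 genes with such a region. MicroRNAs themselves were not measured in these libraries of polyadenylated RNA.

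Library totals ran from 15879056 to 18361130 counts. The Usp7 transcript was at 117 and 128 CPM (counts relative to the library total, scaled by TMM within an experiment) in Usp7 KD cells, against 386 and 381 CPM in Usp7 controls. It fell 3.13-fold (log2 change -1.64, SE 0.19, adjusted p = 0.00124, edgeR quasi-likelihood test), and without KD replicate 2 the change of -1.72 did not pass (adjusted p = 0.131). The Ssrp1 transcript was at 399.6 and 119.7 CPM in the libraries labelled Ssrp1 KO, against 423 and 460.0 CPM in Ssrp1 controls, which is 90.5% of the control mean in replicate 1 and 27.1% in replicate 2. Its log2 change of -0.77 (SE 0.45) did not pass the test (adjusted p = 0.411, edgeR). It was -1.94 and called without KO replicate 1 (adjusted p = 0.00206), and -0.15 without KO replicate 2 (adjusted p = 0.9). A knockout allele may still be transcribed, so the level does not settle the label of replicate 1, and the Ssrp1 changes of the 10 genes are given with and without that library. Mitochondrially encoded transcripts took 7.31% and 2.81% of counts in the libraries labelled Ssrp1 KO and 0.732% and 0.776% in their controls. The embryonic stem cell markers Pou5f1, Sox2, Nanog and Zfp42 summed to 3067 to 3584 CPM in the libraries labelled Ssrp1 KO, 3097 to 4245 CPM in Ssrp1 controls, 2395 to 2521 CPM in Usp7 KD cells and 2439 to 3186 CPM in Usp7 controls, on a scale common to the 8 libraries. None of these 4 markers was called in either experiment. Whether the replicates were separate cultures is not given in the labels, and the p-values refer to the spread between libraries, which may be technical.

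Per kilobase of exon, the level of the genes spanned a wide range. Averaged over the 8 libraries on the common scale, Dppa5a stood at 3411 CPM per kb, rank 6 among 17039 genes. Utf1 followed at 311 CPM per kb, L1td1 at 210.1 and Fbxo15 at 84.0. Tcl1 averaged 73.6 CPM per kb, Nr0b1 61.4 and Lin28a 52.0. Trim71, Dppa3 and Prdm14 were the lowest, at 30.0, 13.7 and 9.29 CPM per kb. Within the Ssrp1 controls the top of this order, Dppa5a above Utf1 above L1td1, held without overlap of the libraries, while Tcl1 (155 and 99.8 CPM per kb), Nr0b1 (124 and 54.1) and Fbxo15 (113 and 86.8) overlapped one another. Dppa3 (17.7 and 7.54 CPM per kb) and Prdm14 (12.7 and 9.20) also overlapped there. In the libraries labelled Ssrp1 KO, Dppa5a was again highest, while Utf1 (277 and 171 CPM per kb), L1td1 (240.5 and 82.4) and Fbxo15 (127 and 187) overlapped. Dppa3 (37.4 and 36.5 CPM per kb) lay above both Nr0b1 (31.1 and 14.2) and Trim71 (32.04 and 18.4) there.

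**Figure D1:**
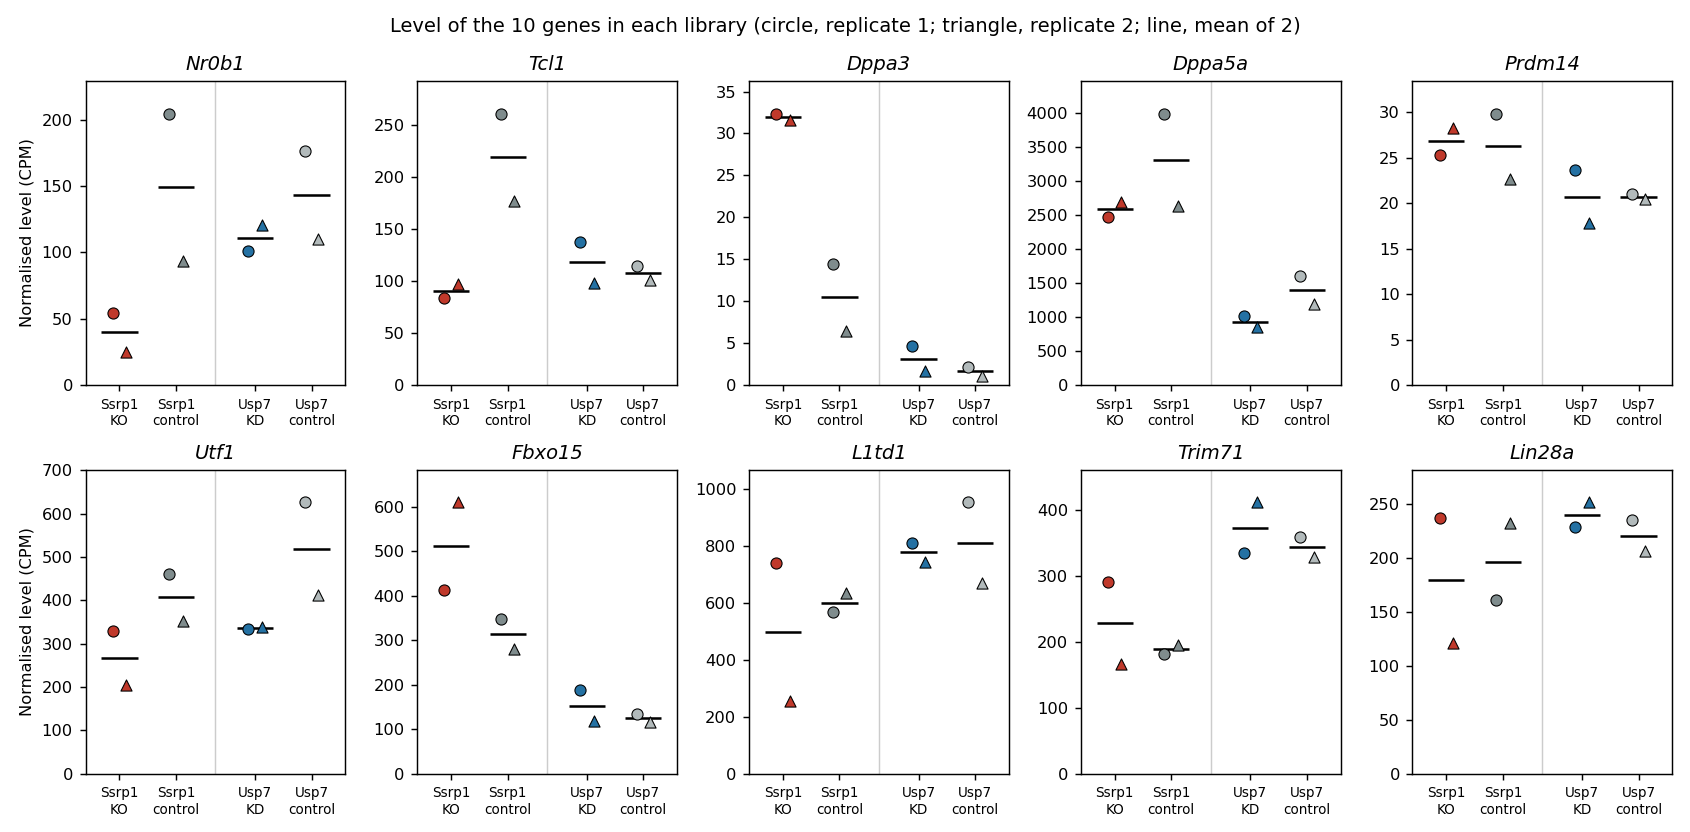
Level of each gene in CPM, scaled within each experiment, in the 2 libraries of each group (circle, replicate 1; triangle, replicate 2; horizontal line, mean). Nr0b1 and Tcl1 lie lower in both Ssrp1 KO libraries than in both Ssrp1 controls, with Tcl1 at 84.0 and 97.4 against 261 and 177 CPM. In proportion to its level, no gene shows a separation of that size between Usp7 KD and Usp7 control libraries.

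The first comparison asks how the transcriptome differs after Ssrp1 knockout. In the libraries labelled Ssrp1 KO, 2 of the 10 genes fell, Nr0b1 3.76-fold and Tcl1 2.41-fold, 0 rose and 8 were not called. Over all 15757 genes tested, 51 were lower, which is 0.324%, and 534 were higher, so that calls in either direction made up 3.71%. With offsets for GC content and exon length the counts were 147 higher and 38 lower, and with DESeq2 888 higher and 212 lower. Of the 10 genes, 4 had an unadjusted p under 0.05 (Nr0b1, Tcl1, Dppa3 and Fbxo15), as did 18.2% of all genes tested by edgeR. That share is also the background for such counts in the lists below. DESeq2 called 3 of the 10 (Nr0b1 and Tcl1 lower, Dppa3 higher). Without KO replicate 1 the edgeR test called Nr0b1 and Dppa3, in a fit that called 8.98% of all genes, and without KO replicate 2 it called all 3, where 11.5% of all genes were called. Without control replicate 1 it called 0 of the 10, and 0.117% of all genes. All 10 genes passed the filter on low counts in each comparison. Their log2 changes ran from -1.91 to 1.62 with a median of -0.20, against a median of 0.03 over all genes. The libraries of the groups did not overlap for 5 of the 10 genes, lower for Nr0b1, Tcl1 and Utf1 and higher for Dppa3 and Fbxo15, and the same was true of 50.0% of all genes tested, so this count is no more than the background.

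Nr0b1 (ENSMUSG00000025056, mm10 chromosome X, 86191764 to 86195947) encodes an orphan nuclear receptor that binds Pou5f1 protein and restrains transcription in mouse embryonic stem cells, where it is also reported to limit Zscan4c. It was at 54.5 and 25.0 CPM in the libraries labelled Ssrp1 KO, against 205 and 93.9 CPM in Ssrp1 controls. Every KO library was below every control, although replicate 1 exceeded replicate 2 by 2.18-fold in each group. The log2 change was -1.91 (SE 0.44) with an adjusted p = 0.0393 in the edgeR test. Without KO replicate 1 it was -2.65 (adjusted p = 8.81e-07), and without KO replicate 2 it was -1.46 (adjusted p = 0.00653). Without control replicate 1, the higher of the controls, it was -1.26 and no longer called (adjusted p = 0.415), and with the GC and length offsets it was -1.75 (adjusted p = 0.0769).

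Tcl1 (ENSMUSG00000041359, chromosome 12, 105216750 to 105222793) encodes a cofactor that binds and activates AKT kinases and supports the proliferation of embryonic stem cells. It was at 84.0 and 97.4 CPM in the libraries labelled Ssrp1 KO, against 261 and 177 CPM in Ssrp1 controls. The KO libraries lay close together, at 38.4% and 44.5% of the control mean. The log2 change was -1.27 (SE 0.29, adjusted p = 0.0384, edgeR). It was -1.24 without KO replicate 1 (adjusted p = 0.053), -0.98 without control replicate 1 (adjusted p = 0.382) and -1.17 with the GC and length offsets (adjusted p = 0.0579), and none of these passed the threshold. Of the 8 other genes of the TCL1 family and AKT kinases, 3 were tested and edgeR and DESeq2 called 0 in either experiment, with 1 at an unadjusted p under 0.05 in the Ssrp1 comparison and 0 in the Usp7 comparison.

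Dppa3 (ENSMUSG00000046323, chromosome 6, 122626410 to 122630272), also called Stella, marks germ cells and the naive state and shields maternal DNA methylation from removal after fertilisation. It was at 32.4 and 31.7 CPM in the libraries labelled Ssrp1 KO, against 14.4 and 6.46 CPM in Ssrp1 controls. Both KO libraries were above both controls, at 309.8% and 303% of the control mean. The log2 change of 1.62 (SE 0.42) missed the threshold in the edgeR test (adjusted p = 0.059) and passed it in DESeq2 (log2 change 1.56, adjusted p = 0.0108), which called 6.78% of its genes. Without KO replicate 1 the edgeR value was 1.53 (adjusted p = 0.0065). Without control replicate 1 it was 2.29 (adjusted p = 0.128), and with the GC and length offsets 1.23 (adjusted p = 0.135).

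**Figure D2:**
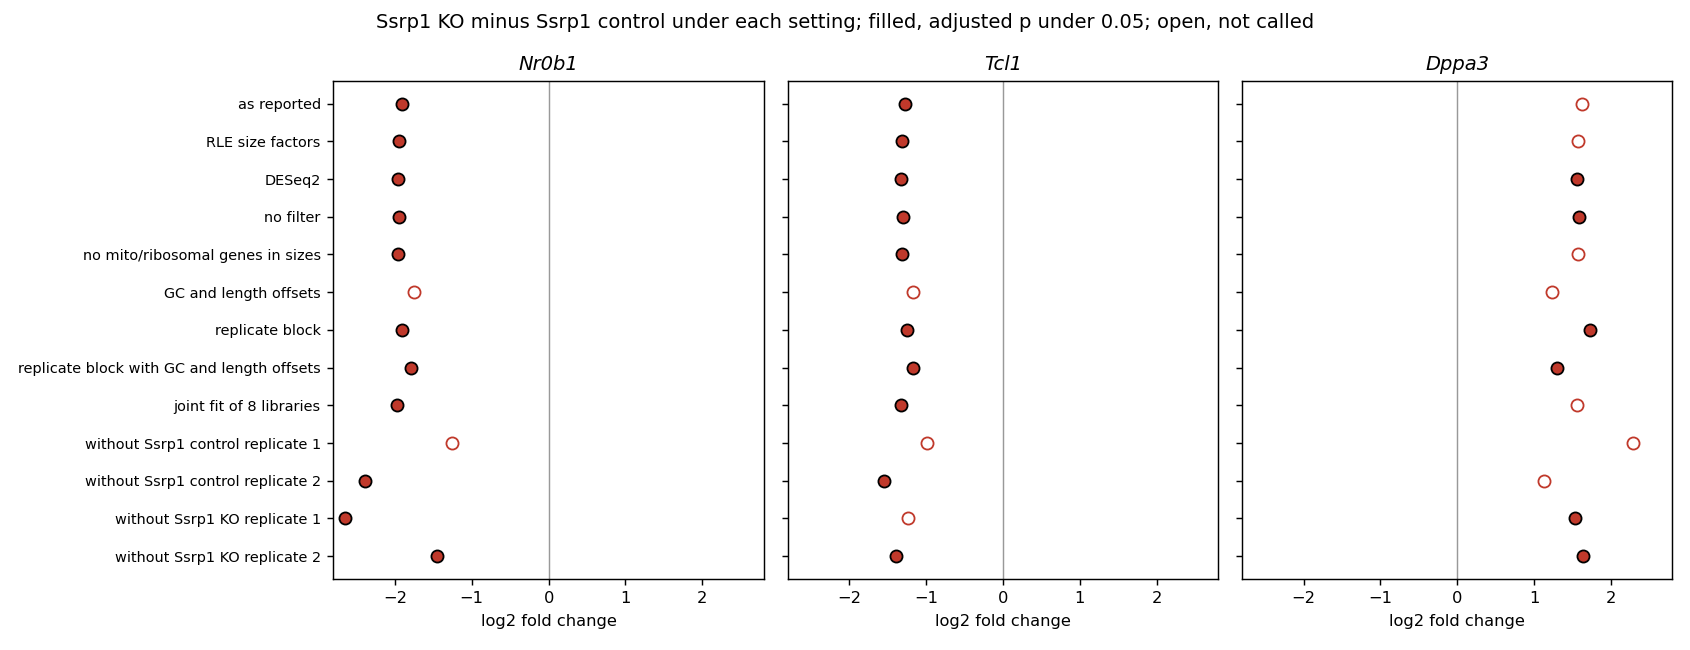
Log2 change of Nr0b1, Tcl1 and Dppa3 in Ssrp1 KO against Ssrp1 control libraries under each processing setting, with filled points called at an adjusted p under 0.05 and open points not called. Every value keeps its sign in these settings, Nr0b1 between -2.65 and -1.26. The calls of Nr0b1 and Tcl1 are lost with the GC and length offsets alone and without control replicate 1. That of Tcl1 is also lost without KO replicate 1.

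Markers of the 2-cell-like state, which a few cells of such cultures enter and in which genes of the early embryo are on, moved with the group. Of 10 markers 9 were matched by symbol and 8 were tested, and these 8 rose in the libraries labelled Ssrp1 KO, from a log2 change of 2.64 for Zscan4c (adjusted p = 0.0419) to 5.37 for B020004J07Rik (adjusted p = 0.00725). All 8 were called whichever KO library was left out, Zscan4c, Zscan4d and Zscan4f were not called with the GC and length offsets (adjusted p = 0.145, 0.0808 and 0.109), and only Usp17la was called without control replicate 1 (adjusted p = 0.0459). DESeq2 called 6 of the 8, and not Zscan4c (adjusted p = 0.149) or Zscan4f (adjusted p = 0.106). On the common scale the 9 summed to 397 and 1137 CPM in the libraries labelled Ssrp1 KO, against 54.6 and 149 CPM in controls. Tcstv1 was at 0 and 1 count in the controls, and each of the others was detected in both. The sum was higher in KO replicate 2, where Nr0b1 was lower, while Tcl1 and Dppa3 were close to equal in the KO replicates. Primitive endoderm markers summed to 30.8 and 23.3 CPM against 4.23 and 7.37 CPM in Ssrp1 controls, and of 5 tested, Dab2 rose (log2 change 2.87, adjusted p = 0.0354, edgeR). With the GC and length offsets Dab2 was not called (log2 change 2.65, adjusted p = 0.0592). All 5 tested primitive endoderm markers had an unadjusted p under 0.05, with a median log2 change of 2.69, and DESeq2 called 3. Of 5 tested trophoblast markers Gata3 rose (log2 change 4.54, adjusted p = 0.0433, edgeR). It was near the floor, at 14 and 15 counts in the libraries labelled Ssrp1 KO and 0 and 1 in Ssrp1 controls. With the GC and length offsets Gata3 was not called (adjusted p = 0.0742), and DESeq2 gave it no adjusted p. Of the 5 trophoblast markers, 2 had an unadjusted p under 0.05 and the median log2 change was 1.58. DESeq2 called 1 trophoblast marker, other than Gata3. By edgeR 0 of 3 mesoderm, 0 of 5 neural and 0 of 3 fibroblast markers were called, while the neural gene Pax6 had an unadjusted p under 0.05 and was called by DESeq2 (log2 change -1.77, adjusted p = 0.00267). The part of such cells in the levels of Nr0b1, Tcl1 and Dppa3 was not tested. With mitochondrial and ribosomal protein genes left out of the library sizes, Nr0b1 and Tcl1 were still called and Dppa3 was not. In RNA of whole cultures, fewer cells that express a gene and less RNA per cell cannot be told apart.

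The other regulators of transcription were not called. Prdm14, a zinc finger protein that with Cbfa2t2 represses differentiation and DNA methyltransferase genes, was at 25.3 and 28.3 CPM in the libraries labelled Ssrp1 KO, against 29.9 and 22.7 CPM in Ssrp1 controls. The groups overlapped and the log2 change was 0.03 (SE 0.32, adjusted p = 0.974), or 0.0441 without KO replicate 1. Utf1, a chromatin-bound factor of undifferentiated cells, was at 329 and 204 CPM in the libraries labelled Ssrp1 KO, against 461 and 353 CPM in Ssrp1 controls. Both KO libraries were below both controls, but the log2 change of -0.61 (SE 0.31) did not pass (adjusted p = 0.341), and it was -0.37 with the GC and length offsets and -1.06 without KO replicate 1 (adjusted p = 0.147). The transcript of Utf1 is rich in GC, at 63.5%.

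Fbxo15, an F-box protein that brings substrates to the SCF ubiquitin ligase and whose gene is a known target of Pou5f1 and Sox2, was at 414 and 611 CPM in the libraries labelled Ssrp1 KO, against 348 and 279.9 CPM in Ssrp1 controls. The groups did not overlap, and the log2 change was 0.71 (SE 0.30, unadjusted p = 0.0397, adjusted p = 0.247, edgeR). It was 0.90 without KO replicate 1 (adjusted p = 0.216) and 0.16 with the GC and length offsets (adjusted p = 0.851), and 43.4% of the bases of its transcript are G or C. Timm21 overlaps Fbxo15 on the opposite strand with 261 and 140 counts in the libraries labelled Ssrp1 KO and 130 and 234 counts in Ssrp1 controls, against 6293 and 11128 and against 5298 and 4942 counts for Fbxo15. The strand setting of the counting is not given in the sources used here, so reads of overlapping genes cannot be told apart. Of 3 other SCF subunits, the adaptor Skp1a rose in the libraries labelled Ssrp1 KO (419 and 470.0 CPM against 187 and 186 CPM in Ssrp1 controls, log2 change 1.26, SE 0.27, adjusted p = 0.0312), and Cul1 and Rbx1 were not called. For Skp1a the change was 0.81 with the GC and length offsets (adjusted p = 0.141), 1.24 without control replicate 1 (adjusted p = 0.237) and 1.23 without control replicate 2 (adjusted p = 0.0767).

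The RNA-binding proteins were not called either, and the KO libraries stood on different sides of the controls for several of them. Dppa5a, a KH-domain protein of the germ line and early embryo, was at 2475 and 2701 CPM in the libraries labelled Ssrp1 KO, against 3997 and 2634 CPM in Ssrp1 controls, with overlapping groups (log2 change -0.36, SE 0.36, adjusted p = 0.667, and -0.36 also without KO replicate 1). L1td1, derived from a retrotransposon protein and known in human cells as a partner of LIN28, was at 740.0 and 254 CPM in the libraries labelled Ssrp1 KO, against 567 and 633 CPM in Ssrp1 controls. KO replicate 1 was above both controls and KO replicate 2 below both.

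Trim71, an RNA-binding ubiquitin ligase also called Lin41, was at 289.9 and 167 CPM in the libraries labelled Ssrp1 KO, against 182 and 195 CPM in Ssrp1 controls. Lin28a was at 237 and 121 CPM in the libraries labelled Ssrp1 KO, against 161 and 232 CPM in Ssrp1 controls. For L1td1, Trim71 and Lin28a alike, replicate 1 was above and replicate 2 below both controls. Replicate 1 exceeded replicate 2 by 2.91-fold for L1td1, 1.74-fold for Trim71 and 1.95-fold for Lin28a, and by 3.34-fold for Ssrp1 itself. With both KO libraries the log2 changes were -0.27 for L1td1 (SE 0.43, adjusted p = 0.797, edgeR), 0.27 for Trim71 (SE 0.31, adjusted p = 0.704) and -0.13 for Lin28a (SE 0.35, adjusted p = 0.889). Without KO replicate 1 they were -1.30 for L1td1 (adjusted p = 0.0752), -0.24 for Trim71 (adjusted p = 0.799) and -0.75 for Lin28a (adjusted p = 0.308), and without KO replicate 2 they were 0.30, 0.62 and 0.27. The means of these genes therefore rest on libraries that differ from each other.

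**Figure D3:**
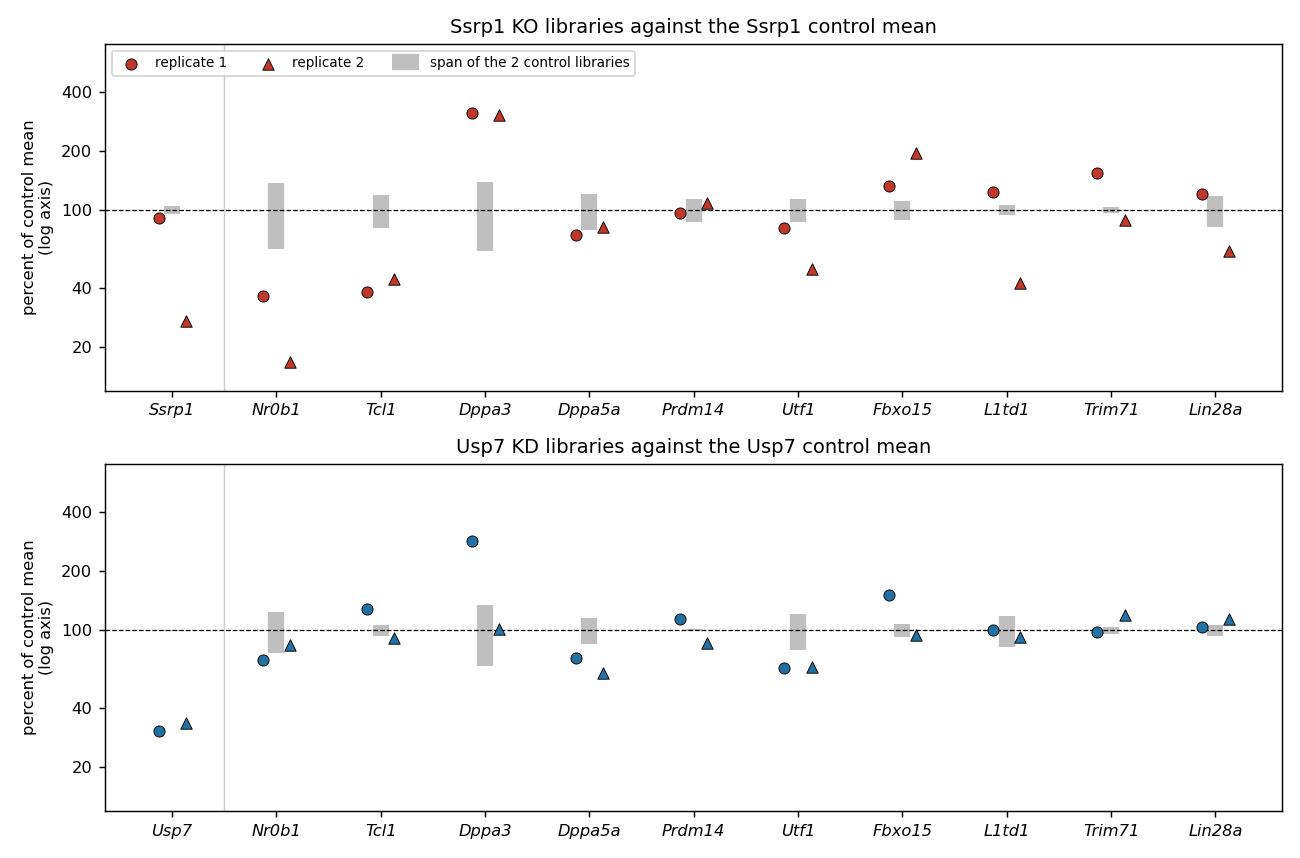
Each Ssrp1 KO library (upper panel) and each Usp7 KD library (lower panel) as a percent of the mean of its 2 controls on a log axis, for the targeted gene at the left and the 10 genes; the grey bar is the span of the 2 controls. In the upper panel replicate 2 is far below replicate 1 for Ssrp1 (27.1% against 90.5%) and L1td1 (42.3% against 123%). The same holds for Lin28a (61.9% against 121%) and Nr0b1 (16.7% against 36.5%), whereas Tcl1 and Dppa3 are alike in both.

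In Usp7 KD cells, none of the 10 genes passed the edgeR test, and DESeq2 called 0. An unadjusted p under 0.05 was seen for 2 of the 10, against 16.7% of all genes tested. The latter share is also the background for such counts in the lists of this experiment. Over all 15915 genes tested, 2.99% were called in either direction and 0.628% were lower. The log2 changes of the 10 genes ran from -0.63 to 0.95 with a median of 0.06, against -0.02 over all genes. The libraries of the groups did not overlap for 2 of the 10 genes, Dppa5a and Utf1, against 48.0% of all genes tested.

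Utf1 was at 334 and 338 CPM in Usp7 KD cells, against 626 and 412 CPM in Usp7 controls. The KD libraries were nearly equal and both below the controls (log2 change -0.63, SE 0.23, unadjusted p = 0.0207, adjusted p = 0.202). Dppa5a was at 1011 and 848 CPM in Usp7 KD cells, against 1613 and 1192 CPM in Usp7 controls, also with both KD libraries lower (log2 change -0.59, SE 0.24, unadjusted p = 0.0311, adjusted p = 0.24). Without control replicate 2 these log2 changes were -0.91 for Utf1 (adjusted p = 0.000248) and -0.80 for Dppa5a (adjusted p = 0.00374), and both were called, as was Nr0b1 at -0.68 (adjusted p = 0.00276), in a fit that called 22.5% of all genes. Without control replicate 1, the higher of the controls for all 3, they were -0.29 for Utf1 (adjusted p = 0.368), -0.36 for Dppa5a (adjusted p = 0.356) and 0.0152 for Nr0b1 (adjusted p = 0.975), and none was called.

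Nr0b1 was at 101 and 121 CPM in Usp7 KD cells, against 177 and 110.0 CPM in Usp7 controls, and the groups overlapped (log2 change -0.37, SE 0.24, adjusted p = 0.471). Tcl1 was at 137 and 98.6 CPM in Usp7 KD cells, against 114 and 101 CPM in Usp7 controls, again with overlap (log2 change 0.13, SE 0.21, adjusted p = 0.8). Dppa3 was low in this experiment, at 4.60 and 1.65 CPM in Usp7 KD cells, from 83 and 30 counts, against 2.18 and 1.06 CPM in Usp7 controls, from 37 and 18 counts (log2 change 0.95, SE 0.55, adjusted p = 0.423). The higher KD library was 2.79-fold above the other, so the difference between groups is within the spread of the KD replicates.

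Prdm14 was at 23.6 and 17.8 CPM in Usp7 KD cells, against 21.0 and 20.5 CPM in Usp7 controls, with a log2 change of -0.0022 (SE 0.22). Fbxo15 was at 188 and 118 CPM in Usp7 KD cells, against 134 and 116 CPM in Usp7 controls (log2 change 0.29, SE 0.23, adjusted p = 0.578). Neither the germ-cell regulator nor the F-box gene separated the groups. L1td1 was at 811 and 745 CPM in Usp7 KD cells, against 953 and 668 CPM in Usp7 controls (log2 change -0.06, SE 0.23, adjusted p = 0.93). Trim71 was at 335 and 411 CPM in Usp7 KD cells, against 358 and 329 CPM in Usp7 controls (log2 change 0.12, SE 0.20, adjusted p = 0.815). Lin28a was at 228 and 251 CPM in Usp7 KD cells, against 235 and 206 CPM in Usp7 controls (log2 change 0.12, SE 0.19, adjusted p = 0.794). For these RNA-binding proteins the KD and control libraries overlapped throughout. Of 5 tested 2-cell-like markers, 4 rose in Usp7 KD cells, where the 9 matched markers summed to 22.8 and 19.1 CPM on the common scale, against 3.91 and 2.99 CPM in Usp7 controls. Tcstv1 was at 0 in all 4 libraries and Tcstv3 in both controls. DESeq2 called Zscan4c, Zscan4d and Zscan4f but not Usp17la (adjusted p = 0.0843), which held 3 and 2 counts in Usp7 controls. In the edgeR joint fit of 8 libraries none of these 4 was called (adjusted p = 0.158, 0.18, 0.191 and 0.075), and 0.457% of all genes were. Of 6 tested trophoblast markers, Krt7 rose (log2 change 2.56, adjusted p = 0.037, edgeR), at 29 and 35 counts in Usp7 KD cells and 5 and 5 in Usp7 controls. Of the 6, 5 had an unadjusted p under 0.05 and the median log2 change was 1.76, while DESeq2 called 0. Of 5 tested neural markers, Pax6 rose (log2 change 1.27, adjusted p = 0.0201, edgeR) and 2 had an unadjusted p under 0.05. DESeq2 called Pax6 too (log2 change 1.25, adjusted p = 0.0013). It was not called by edgeR in the joint fit (adjusted p = 0.118) or without the filter on low counts (adjusted p = 0.105). Of 5 tested primitive endoderm markers, edgeR and DESeq2 called 0 and 2 had an unadjusted p under 0.05. The part of such cells in the levels of the 10 genes was not tested.

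**Figure D4:**
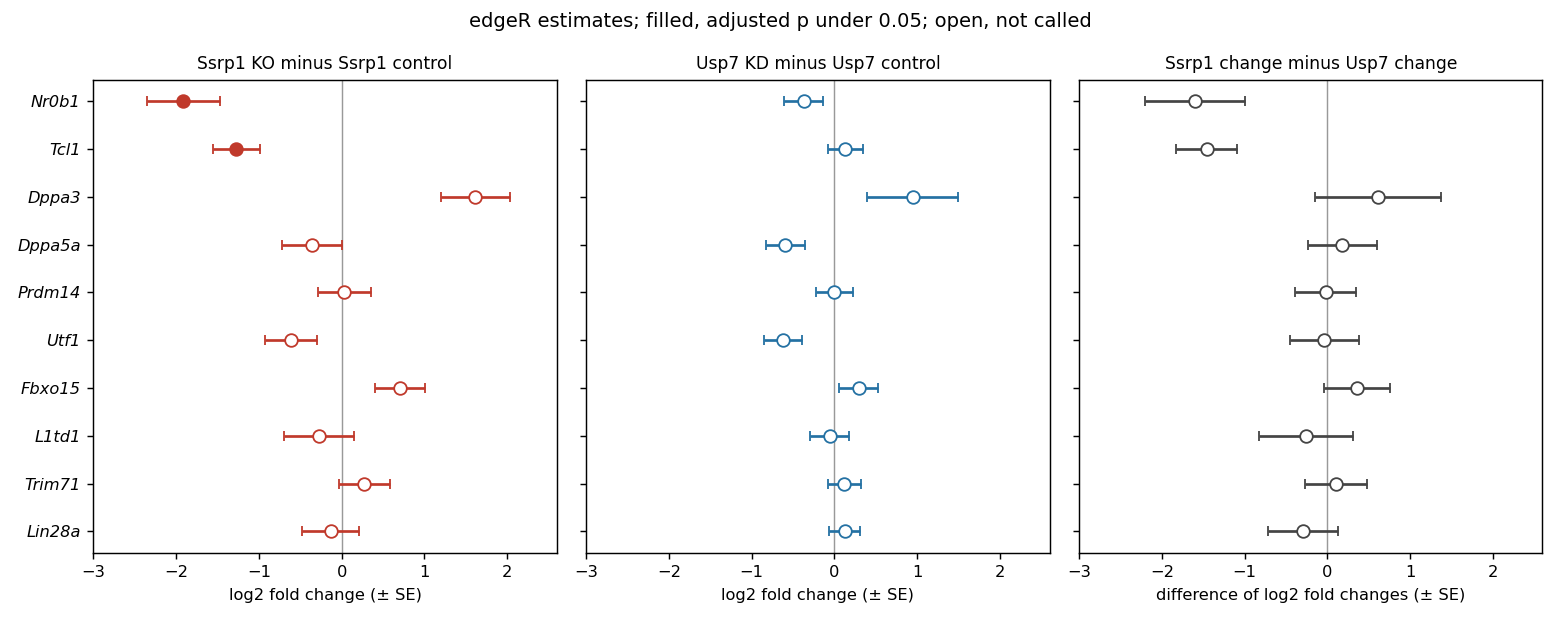
edgeR log2 fold changes with standard errors for Ssrp1 KO minus Ssrp1 control, Usp7 KD minus Usp7 control and the difference of these changes, filled where the adjusted p is under 0.05. Only Nr0b1 (-1.91) and Tcl1 (-1.27) in the Ssrp1 panel are filled, and in the third panel they lie at -1.60 and -1.46 with open symbols.

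Whether the genes responded differently in the experiments was tested as the Ssrp1 change minus the Usp7 change in a fit of all 8 libraries. None of the 10 genes was called by edgeR, and 1.00% of 17052 genes were called. Of the 10, 2 had an unadjusted p under 0.05, against 15.1% of all genes tested. For Tcl1 the difference was -1.46 (SE 0.37, unadjusted p = 0.00218, adjusted p = 0.0938), and DESeq2 called it (adjusted p = 0.0157). For Nr0b1 it was -1.60 (SE 0.60, unadjusted p = 0.0219, adjusted p = 0.239), and DESeq2 did not call it (adjusted p = 0.0961). Without the filter on low counts edgeR called both, at -1.59 for Nr0b1 (adjusted p = 0.00199) and -1.46 for Tcl1 (adjusted p = 0.0057), in a fit that called 2.99% of all genes. Whether the difference between the experiments passed the threshold thus depended on the fit, and its size changed little in these fits of all 8 libraries. With 1 library left out it ran from -2.29 to -0.89 for Nr0b1 and from -1.76 to -1.12 for Tcl1. For the other 8 genes the differences ran from -0.30 to 0.61.

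The control libraries of the experiments were not alike for several of these genes, given here on the common scale without a test, since experiment and control cannot be told apart. Dppa3 was at 15.8 and 6.72 CPM in Ssrp1 controls and at 2.10 and 0.998 CPM in Usp7 controls, a ratio of means of 7.27. Fbxo15 was at 380.0 and 292 CPM in Ssrp1 controls and at 129 and 109 CPM in Usp7 controls, a ratio of 2.82. Dppa5a stood 2.66-fold, Tcl1 2.29-fold and Prdm14 1.42-fold higher in Ssrp1 controls without overlap of the libraries. Trim71 was the reverse, at 344 and 311 CPM in Usp7 controls and 199 and 204 CPM in Ssrp1 controls. Nr0b1, Utf1, L1td1 and Lin28a overlapped. On this scale Tcl1 stood at 46.9 and 54.4 CPM per kb in the libraries labelled Ssrp1 KO, 70.9 and 50.9 CPM per kb in Usp7 KD cells and 59.6 and 51.6 CPM per kb in Usp7 controls, and these groups overlapped.

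**Figure D5:**
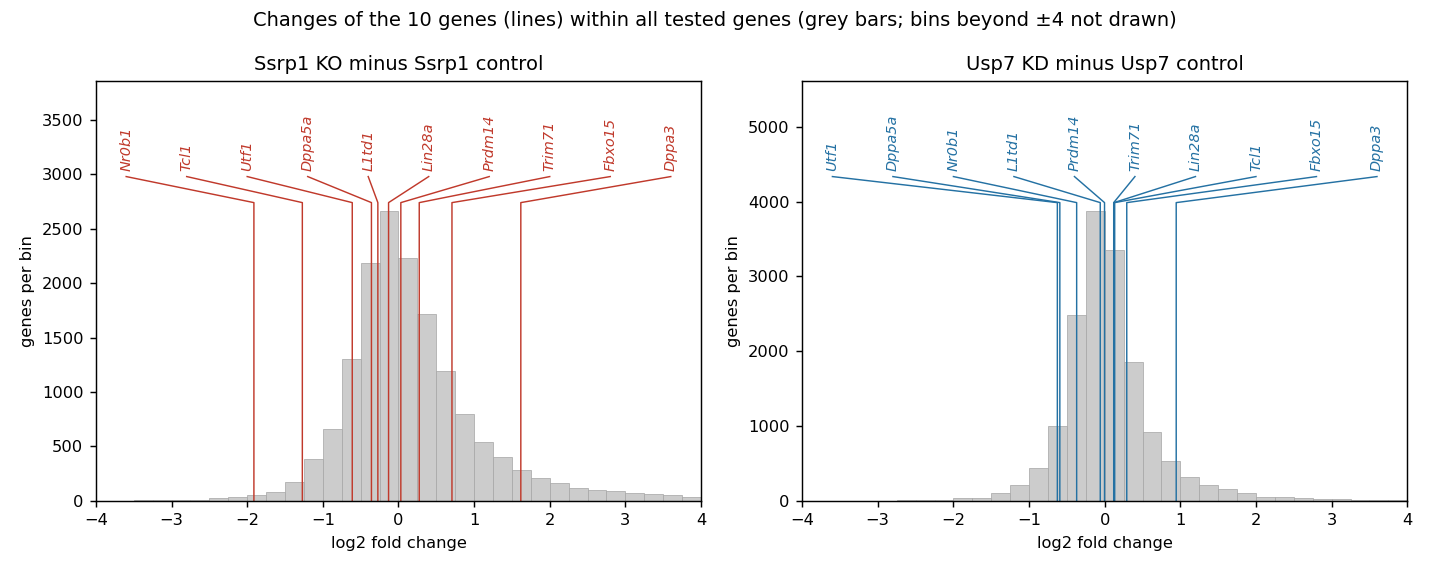
Number of genes per bin of log2 change among all genes tested, for Ssrp1 KO minus Ssrp1 control (left) and Usp7 KD minus Usp7 control (right), with a vertical line at each of the 10 genes. In the left panel Nr0b1 (-1.91) and Tcl1 (-1.27) lie in the lower tail, below the 5th percentile of all genes at -0.99, and in the right panel all 10 lie between the 5th and 95th percentiles, -0.77 and 1.19.

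The genes whose levels ran most like Nr0b1 over the 8 libraries, after the mean of each experiment was removed, were Cox10 (Pearson's r = 0.994), an enzyme of haem synthesis for cytochrome oxidase, Atraid (r = 0.993) and Narfl (r = 0.991), among 10816 genes searched. Those most like Tcl1 were the nuclear pore gene Nup107 (r = 0.994), Atmin (r = 0.992) and Galk2 (r = 0.989). These 6 were lower in both libraries labelled Ssrp1 KO than in both controls, with log2 changes from -1.13 for Galk2 to -0.37 for Atmin. Selection for likeness to Nr0b1 or Tcl1 over the same libraries favours this, so it is not a separate result. Of all genes tested, 50.0% did not overlap between these groups in either direction. None of the 6 was called by edgeR in either experiment, and DESeq2 called Galk2 in the Ssrp1 comparison (log2 change -1.19, adjusted p = 0.0276). Nr0b1 and Tcl1 themselves had r = 0.819. The correlations describe 8 libraries that share scaling and depth, and the largest of so many are high by selection.

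Around these genes, the transcription factors that hold the pluripotent state were not called. Of 15 core and naive factors, edgeR called 0 in either experiment, with 2 at an unadjusted p under 0.05 in each, and DESeq2 called Klf4 in Usp7 KD cells (log2 change -0.75, adjusted p = 0.00904). They had median log2 changes of 0.15 in the Ssrp1 and -0.11 in the Usp7 comparison. Pou5f1 was at 1019 and 890.0 CPM in the libraries labelled Ssrp1 KO, against 1568 and 1141 CPM in Ssrp1 controls (log2 change -0.50, SE 0.32, adjusted p = 0.454). Nanog was at 1169 and 1193 CPM in the libraries labelled Ssrp1 KO, against 899 and 757 CPM in Ssrp1 controls (log2 change 0.51, SE 0.30, adjusted p = 0.41), and Sox2 overlapped between the groups (0.36, adjusted p = 0.597). In Usp7 KD cells the log2 changes were -0.33 for Pou5f1, 0.28 for Nanog and -0.33 for Sox2, none called. Of 20 other pluripotency-associated genes, Rif1, which controls replication timing and DNA repair, rose in the libraries labelled Ssrp1 KO, at 445 and 199.6 CPM against 53.8 and 103 CPM in Ssrp1 controls (log2 change 2.04, SE 0.42, adjusted p = 0.0284). It was 1.30 without KO replicate 1 (adjusted p = 0.0149), 1.08 with the GC and length offsets (adjusted p = 0.0994) and 1.63 without control replicate 1 (adjusted p = 0.251). The other 19 were not called there by edgeR, and DESeq2 added Tdh (-1.27, adjusted p = 0.0116) and Eras (-1.24, adjusted p = 0.0226). Of the 20, 6 had an unadjusted p under 0.05 in the Ssrp1 comparison (edgeR). In Usp7 KD cells edgeR called 0 of the 20, with 5 at an unadjusted p under 0.05, and DESeq2 called Eras (-0.89, adjusted p = 0.0156).

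Of 15 genes of the LIN28 and let-7 pathway, Hmga2, a chromatin protein and let-7 target with 4 seed matches in its 3′ untranslated region, fell in Usp7 KD cells, at 5.15 and 5.82 CPM against 14.9 and 13.5 CPM in Usp7 controls (log2 change -1.37, SE 0.26, adjusted p = 0.0175). It was -1.29 without KD replicate 1 (adjusted p = 0.125) and -1.46 without KD replicate 2 (adjusted p = 0.343), and neither passed. In the libraries labelled Ssrp1 KO it was at 44.3 and 7.08 CPM, against 3.94 and 6.68 CPM in Ssrp1 controls, and was not called (adjusted p = 0.103). Without KO replicate 1, which also held the higher Lin28a, Trim71 and L1td1, its log2 change was 0.36 in place of 2.27. The remaining 14 genes of the pathway were not called in either experiment. Of the 15, 4 had an unadjusted p under 0.05 in the Ssrp1 and 3 in the Usp7 comparison (edgeR).

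Of 9 partners of Prdm14 and Dppa3 in DNA methylation and histone methylation, edgeR called 0 in either experiment, with 0 at an unadjusted p under 0.05 in the Ssrp1 and 2 in the Usp7 comparison. DESeq2 called Dnmt3a, a de novo DNA methyltransferase, in Usp7 KD cells (log2 change -0.62, adjusted p = 0.0498). Their edgeR log2 changes ran from -0.48 to 0.41 in the Ssrp1 and from -0.61 to 0.22 in the Usp7 comparison. The list of formative and primed markers, for states that follow the naive state, had 8 tested genes. Of these, 2 fell in the libraries labelled Ssrp1 KO, the Nodal antagonists Lefty1 and Lefty2. The rest were not called there by edgeR or DESeq2, and the highest log2 change was 1.17. In Usp7 KD cells 0 of the 8 were called by edgeR or DESeq2, with 2 at an unadjusted p under 0.05. Lefty1 was at 10.2 and 2.14 CPM in the libraries labelled Ssrp1 KO, against 164 and 111 CPM in Ssrp1 controls (log2 change -4.49, SE 0.60, adjusted p = 0.00725; -6.07 without KO replicate 1). Lefty2 changed by -3.12 (SE 0.54, adjusted p = 0.0153; -4.53 without KO replicate 1). Both are known targets of Nodal signalling and are expressed in undifferentiated embryonic stem cells, so they do not stand for the rest of the list.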

How the data were processed

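The deposited tables, one for each experiment with 4 libraries, hold raw read counts for each gene, judged from whole-number values and unequal totals. Per the submitters' processing notes, cutadapt, HISAT2 and featureCounts were used with the build mm10. Which versions, strand setting and treatment of reads with several matches they used is not given in the sources used here. Rows of 92 spike-in sequences, all at 0, were left out. GENCODE vM21 (GRCm38) gave symbols, positions, exon lengths and GC content, and 67 of 54232 identifiers had no symbol.

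Each experiment was tested on its 4 libraries with edgeR 4.0.16 in R 4.3.3: filterByExpr, TMM scaling, the quasi-likelihood F test and Benjamini-Hochberg adjustment over all genes, called at an adjusted p under 0.05. The Ssrp1 change minus the Usp7 change was tested on 8 libraries. CPM values use the TMM scaling of their own experiment unless given on the common scale. Standard errors came from the log2 change and the F statistic. Alternatives were DESeq2 1.42.0, RLE size factors, no filter, library sizes without mitochondrial and ribosomal protein genes, offsets for GC content and exon length, a replicate block, a joint fit and leaving out each library. The edgeR fits were also tested on simulated data with planted changes. Let-7 seed matches were sought in the longest 3′ untranslated region per gene.

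The 10 genes and the lists were chosen with earlier results of these data known. Named beside them are the targets, Pou5f1, Sox2 and Nanog, called genes of each list, up to 3 per direction, and the 3 genes most correlated with Nr0b1 and with Tcl1 at a mean of at least 5 CPM; any other gene was named after its values were seen.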

Additional observations from a re-analysis of the deposited data

Results flagged for a closer look

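In the fit of 8 libraries the change differed between the experiments for 4 of the genes named, none of them among the 10. For Usp7 the Ssrp1 change minus the Usp7 change was 1.53 on the log2 scale (adjusted p = 0.0369, edgeR), with Usp7 lower in both Usp7 KD libraries, as the targeted gene, and overlapping between the libraries labelled Ssrp1 KO and their controls. For Lefty1 the difference was -4.11 (adjusted p = 0.0267): it was at 36.0 and 42.4 CPM in Usp7 KD cells, against 55.8 and 50.7 CPM in Usp7 controls. For Lefty2 the difference was -3.53 (adjusted p = 0.036): it was at 30.4 and 7.35 CPM in the libraries labelled Ssrp1 KO, against 139 and 188 CPM in Ssrp1 controls, and at 129.9 and 168 CPM in Usp7 KD cells, against 109 and 121 CPM in Usp7 controls. For the neural gene Pax6 the difference was -3.03 (adjusted p = 0.0132): it was at 3.88 and 3.68 CPM in the libraries labelled Ssrp1 KO, against 11.9 and 13.03 CPM in Ssrp1 controls, and at 21.1 and 19.5 CPM in Usp7 KD cells, against 9.54 and 7.34 CPM in Usp7 controls. Each of these 4 differences lost its call in most fits without a single library, while its size changed little where a Usp7 library was left out. Without Usp7 KD replicate 2 the differences were 1.56 for Usp7 (adjusted p = 0.291), -4.02 for Lefty1 (adjusted p = 0.156), -3.37 for Lefty2 (adjusted p = 0.205) and -3.12 for Pax6 (adjusted p = 0.145), in a fit that called 1 of 18049 genes. With 2 libraries per group, single libraries were not screened as outliers.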

How the results depend on the processing

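Of the log2 changes of the 10 genes under the alternatives, 323 kept sign and side of the threshold, 20 newly passed it, 5 lost it and 42 turned sign; the cause was not tested. In the Ssrp1 comparison the 585 calls over all genes (534 higher, 51 lower) became 1100 with DESeq2 (888 higher, 212 lower), 1497 without the filter, 988 with the replicate block, 1314 in the joint fit and 185 with the GC and length offsets (147 higher, 38 lower), where 0 of the 10 genes were called. In the Usp7 comparison the 476 calls became 100 without the filter, 772 with the offsets (558 higher, 214 lower), 1471 with the replicate block (964 higher, 507 lower), 1868 with block and offsets and 78 in the joint fit. Of the 10 genes, 1 (Utf1) was called there with the replicate block and 2 (Utf1 and Dppa5a) with block and offsets. For the difference of the changes, the 171 calls became 657 with DESeq2, 945 without the filter, 525 with the replicate block and 323 with block and offsets. Of the 10 genes, 1 (Tcl1) was called there with DESeq2 and 2 (Nr0b1 and Tcl1) in each of the other 3, at adjusted p = 0.0236 and 0.0395 with the block and 0.0266 and 0.039 with block and offsets.

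The replicate numbers are not known to pair the libraries: deviations of same-numbered libraries correlated at 0.18 and 0.167 in the experiments, with 2 pairs each. With the replicate block 3 of the 10 genes were called in the Ssrp1 comparison, Dppa3 besides Nr0b1 and Tcl1. The same 3 were called with block and offsets (adjusted p = 0.0465 for Dppa3, 0.00183 for Nr0b1 and 0.019 for Tcl1, edgeR). That fit made 818 calls, or 5.19% of all genes tested.

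Leaving out 1 library gave 20 to 1884 calls in the Ssrp1 comparison (0 to 3 of the 10 genes), 42 to 3770 in the Usp7 comparison (0 to 3) and 1 to 1109 for the difference (0 to 1). The fewest came without Ssrp1 control replicate 1, without Usp7 KD replicate 2, and without Usp7 control replicate 1 or Usp7 KD replicate 2. Signs turned for genes that were not called. In the Ssrp1 comparison the ranges were -0.18 to 0.22 for Prdm14, -0.75 to 0.27 for Lin28a, -0.24 to 0.62 for Trim71 and -1.30 to 0.30 for L1td1. In the Usp7 comparison they were -0.68 to 0.0152 for Nr0b1, -0.22 to 0.19 for Prdm14, -0.30 to 0.22 for L1td1, -0.13 to 0.35 for Tcl1, -0.0849 to 0.59 for Fbxo15 and -0.0382 to 0.26 for Trim71. For the difference they were -0.25 to 0.22 for Prdm14, -0.44 to 0.24 for Utf1, -0.13 to 0.54 for Dppa5a, -0.36 to 0.42 for Trim71, -1.24 to 0.28 for L1td1, -0.88 to 0.0779 for Lin28a and -0.0282 to 1.503 for Dppa3. A lone library was taken to vary like the rest.

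Prdm14 turned sign in the Ssrp1 comparison with RLE factors (-0.0125), DESeq2 (-0.0248), no filter (-0.0021), library sizes without mitochondrial and ribosomal protein genes (-0.014) and the joint fit (-0.0234), and in the Usp7 comparison with the offsets (0.0282) and block and offsets (0.0195). For the difference it turned with those library sizes (0.0189), the offsets (0.0455), the block (0.0082) and block and offsets (0.0554). Utf1 turned there with those library sizes (0.0054), the offsets (0.14) and block and offsets (0.0783), and Fbxo15 with the offsets (-0.11) and block and offsets (-0.10).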

Other observations

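Dppa5a has annotated pseudogene copies whose counts moved apart from it. Dppa5c held 719 and 78 counts in the libraries labelled Ssrp1 KO and 84 and 64 in Ssrp1 controls, and Dppa5b held 19 and 31 counts in the libraries labelled Ssrp1 KO and 150 and 56 in Ssrp1 controls, against 37616 to 60896 counts for Dppa5a itself in these 4 libraries. How reads shared by these copies were assigned is not given in the sources used here. Dppa3-ps held 0 counts in 7 of the 8 libraries.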
